A study of Homo sapiens with 6 samples.

Results

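Replication-dependent histone genes encode the linker histone H1 and the core histones H2A, H2B, H3 and H4 that package newly made DNA. They were taken as the probe sets whose single gene symbol starts with H1-, H2AC, H2BC, H3C or H4C and a digit. This rule found 113 probe sets of 49193, which stand for 67 genes of the 18129 with a single symbol. The arrays compared UMUC3-c31 cells under 2 conditions with 3 arrays each. UMUC3 is an established human line from a bladder carcinoma, and the sources used here do not say how c31 was obtained from it. In both groups steroids had been removed for 24 h with charcoal-stripped serum. The vehicle group then received ethanol and the other group 10 nM R1881, a synthetic androgen, each for 24 h. The series title concerns regulation of CD44 by the androgen receptor, and here the question is how histone transcripts stood after the androgen.

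Most of these genes lie in clusters that are transcribed together at histone locus bodies when cells enter S phase. Their mRNAs normally end in a conserved stem-loop bound by SLBP in place of a poly(A) tail. Linker histones hold the DNA between nucleosomes, while pairs of H2A with H2B and of H3 with H4 form the core. Several of the genes encode identical or nearly identical proteins, so their coding sequences are much alike. Arrays labelled from poly(A) tails see such mRNAs poorly, and the sources used here do not say how this RNA was primed.

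The symbol rule also took in genes outside its name. H1-6, H1-7 and H1-8 encode linker histones of germ cells, and H1-10 encodes a linker histone made outside S phase too. H1-9P and H2BC20P are pseudogenes by symbol, and H1-10-AS1 is an antisense gene that encodes no histone. These 7 are counted among the 67 genes and named where they are described. By class there were 10 H1, 15 H2A, 19 H2B, 10 H3 and 12 H4 genes. RefSeq placed 54 of the genes on chromosome 6, and 6 on chromosome 1, 2 on chromosome 3 and 2 on chromosome 12.

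All 6 arrays had like medians (5.49 to 5.51 on the log2 scale), and vehicle and R1881 arrays separated on the first principal component over all genes, which held 43.2% of the variance. Of 12 urothelial markers 6 lay above the background level used here in at least 1 group. KRT18 lay between 10.33 and 10.79 on the 6 arrays and KRT8 between 7.81 and 8.02. UPK1A (means of 5.03 with vehicle and 5.08 with R1881), GATA3 (4.91 and 5.02) and FOXA1 (5.01 and 4.87) were at about the background level. The uroplakin genes UPK1B, UPK2 and UPK3A lay below it, as did PPARG, KRT5 and KRT20. With R1881 KRT18 fell by 0.37 and KRT7 rose by 0.40 on the log2 scale, by the test described further on. Of the other cell types' markers, 1 of 8 fibroblast genes and 3 of 7 immune and endothelial genes lay above the background level.

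The promoters of the genes whose values are described first are shown here because they differ in the elements typical of histone promoters. They are the 250 bases before the gene's start in RefSeq (GRCh38.p14), 5′ to 3′ on the gene's strand. H4C8 is at chr6:26285535-26285784 (minus strand), H1-4 at chr6:26156079-26156328 (plus), H1-3 at chr6:26234988-26235237 (minus), H2BC12 at chr6:27146856-27147105 (minus) and H2BC5 at chr6:26157871-26158120 (plus). Capitals mark the TATA motif TATAA, the motif CCAAT, the octamer ATTTGCAT and the H1 box AAACACA on either strand, so a match on the other strand reads TTATA or ATTGG here.
H4C8: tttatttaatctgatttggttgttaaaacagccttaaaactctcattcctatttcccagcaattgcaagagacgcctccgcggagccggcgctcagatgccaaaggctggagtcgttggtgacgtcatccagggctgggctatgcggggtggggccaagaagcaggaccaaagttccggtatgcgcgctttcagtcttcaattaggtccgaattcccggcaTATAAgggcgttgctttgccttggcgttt
H1-4: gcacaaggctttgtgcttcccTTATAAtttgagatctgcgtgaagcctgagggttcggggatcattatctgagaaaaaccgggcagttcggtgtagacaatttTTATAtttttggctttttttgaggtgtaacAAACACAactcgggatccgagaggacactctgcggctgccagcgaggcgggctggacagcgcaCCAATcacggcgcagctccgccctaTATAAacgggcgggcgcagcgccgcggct
H1-3: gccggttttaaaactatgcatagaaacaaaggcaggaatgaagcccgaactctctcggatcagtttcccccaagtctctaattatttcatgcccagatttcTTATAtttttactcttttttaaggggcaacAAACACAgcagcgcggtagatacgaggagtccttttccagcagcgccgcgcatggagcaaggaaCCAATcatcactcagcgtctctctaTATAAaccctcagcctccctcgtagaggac
H2BC12: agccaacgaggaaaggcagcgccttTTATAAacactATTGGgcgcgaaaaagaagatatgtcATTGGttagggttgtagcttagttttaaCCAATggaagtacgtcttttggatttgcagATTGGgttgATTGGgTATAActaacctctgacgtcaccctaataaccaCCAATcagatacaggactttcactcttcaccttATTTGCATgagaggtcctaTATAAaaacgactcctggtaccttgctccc
H2BC5: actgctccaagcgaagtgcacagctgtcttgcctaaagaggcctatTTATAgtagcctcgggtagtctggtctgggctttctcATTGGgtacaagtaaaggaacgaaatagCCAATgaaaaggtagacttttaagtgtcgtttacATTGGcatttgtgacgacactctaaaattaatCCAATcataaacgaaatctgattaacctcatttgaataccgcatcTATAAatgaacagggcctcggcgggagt

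All 5 promoters hold a TATAA on the gene's strand 28 to 30 bases before the start. H4C8 holds no other marked element. H1-4 and H1-3 share a layout, with AAACACA 117 and 119 bases and CCAAT 54 and 55 bases before the start. H2BC12 carries 6 CCAAT matches and an octamer, and H2BC5 carries 4 CCAAT matches and no octamer.

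A promoter was found for 59 of the 67 genes. TATAA occurred in 93.2% of them and in 19.9% of 27305 promoters in the RefSeq table, and TATAAA, which contains it, in 64.4% against 11.3%. CCAAT occurred in 86.4% against 32.9%, but in 3 of 10 H4 promoters. The octamer was found in 11 of 14 H2A and 14 of 18 H2B promoters and in none of the H1, H3 or H4 promoters, against 1.69% of all promoters. Several neighbouring H2A and H2B genes had equal counts of every motif, among them H2AC1 with H2BC1 and H2AC14 with H2BC14. Whether their windows overlap was not tested, so the 59 promoters may not be separate stretches of DNA. AAACACA was found in 7 of 9 H1 promoters and in no other class, against 4.96% of all. An exact match to the canonical palindromic androgen response element was in none of the 59 windows and in 1 of all promoters, which says only that these letters are not in these windows.

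Most histone genes gave little signal on these arrays. The background level was 4.99 on the log2 scale, the 90th percentile of the mean levels of 423 olfactory receptor and keratin-associated protein genes. Above it in at least 1 group lay 21 of the 67 histone genes (31.3%), compared with 60.9% of all genes. By class these were 5 H1, 6 H2A, 5 H2B, 2 H3 and 3 H4 genes. With the 75th or the 95th percentile as the level, 34 or 13 genes lay above it. Probe set identifiers carrying an s or x, whose probes match several transcripts, made up 45.1% of the member sets and 29.1% of all sets. Of the 21 genes above background, 11 were represented by such a set, where related transcripts can add to the reading.

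R1881 raised 1 histone gene, H4C8, and lowered 1, H1-4. Changes are log2 of R1881 minus vehicle, and the adjusted p is from limma with Benjamini-Hochberg adjustment over all 18129 genes at a threshold of 0.05. Of all genes 1.6% were called higher and 0.816% lower, 2.42% in either direction, so 2 of 67 is near the background. The remaining 65 histone genes did not pass. The median change was 0.01 over the 67 genes and -0.03 over the 21 above background, beside -0.01 over all 11049 genes above background. With each of the 113 probe sets tested as it stands, the same 2 genes' sets were called (adjusted p of 0.0015 and 0.0344), where 1.54% of all probe sets were (1.12% higher and 0.427% lower). Both called genes are among the 21 above background, and 3.86% of all genes above background were called. H4C8 lay above it only with R1881 and H1-4 only with vehicle. Their place among the 21 thus depended on the difference tested, and counts among the 21 are description only.

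H4C8, a gene of the core histone H4, read 4.81, 4.72 and 4.83 in the vehicle arrays and 6.09, 5.75 and 5.92 in the R1881 arrays. Every R1881 array was thus nearly a full log2 unit above every vehicle array. The means were 4.79 ± 0.06 and 5.92 ± 0.17 (SD, n = 3), a change of 1.13 ± 0.09 (SE) with limma adjusted p = 0.0011. Since the vehicle level was below background, the rise is given from the means alone as at least 1.90-fold. With the 95th percentile (5.98) as the level, both group means lay below it and no minimum fold can be given. The call held when any 1 array was left out, with changes of 1.05 to 1.22 and adjusted p of 0.0035 to 0.0135. H4C8 is represented by a single probe set of the s type, so which H4 transcripts contribute was not tested.

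No other H4 gene was called, and the remaining 11 lay between -0.24 and 0.19. H4C7, the next highest by change, read 4.34, 4.30 and 4.21 and then 4.61, 4.39 and 4.43, below background in both groups. The genes beside H4C8 on chromosome 6 did not pass either. On one side these were H2BC10 (0.15 ± 0.07), H3C8 (0.05 ± 0.06) and H2BC9 (0.08 ± 0.16), and on the other the butyrophilin genes BTN3A2 (-0.05 ± 0.06), BTN2A2 (0.22 ± 0.07) and BTN3A1 (-0.11 ± 0.08). Their adjusted p by limma ran from 0.241 to 0.862.

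H1-4, which encodes a widely expressed linker histone, read 5.22, 5.27 and 5.34 with vehicle and 4.78, 4.95 and 4.92 with R1881. The groups did not overlap, and all 3 R1881 arrays lay below the background level. The means were 5.28 ± 0.06 and 4.88 ± 0.09 (SD, n = 3), a change of -0.39 ± 0.06 (SE) with limma adjusted p = 0.0223. From the means alone, the fall is given as at least 1.22-fold. The 95% confidence interval of R1881 over vehicle was 0.69 to 0.84. Both H1-4 means also lay below the 95th percentile level (5.98), at which no minimum fold can be given. For any lower value in these bulk samples, fewer cells of a kind and less RNA per cell cannot be told apart. Leaving out each of the 6 arrays in turn ended the call every time, with changes of -0.43 to -0.34 and adjusted p of 0.0595 to 0.103. Those fits called 53 to 72 of 18129 genes lower, where the main fit called 148. An exact permutation test of a single gene with 3 arrays against 3 cannot go below p = 0.10, which both genes reach.

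**Figure D1:**
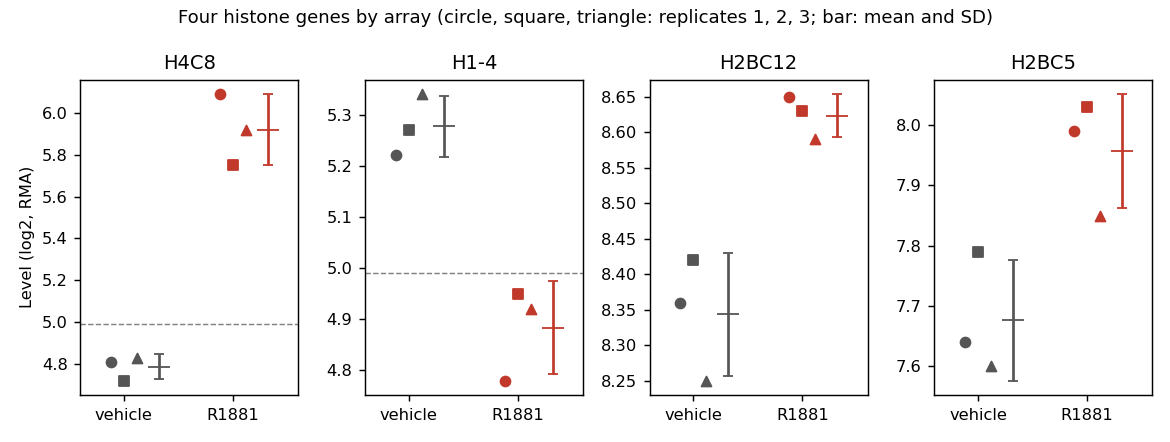
Levels of H4C8, H1-4, H2BC12 and H2BC5 (log2, RMA) on each of the 3 vehicle and 3 R1881 arrays, with the mean and SD of each group beside the points and the background level of 4.99 dashed where it falls in range. Vertical axes differ between panels and do not start at 0. In all 4 genes the groups do not overlap.

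The H2B genes H2BC12 and H2BC5 stood next. Both encode core histone H2B and are known to give polyadenylated transcripts as well as stem-loop ones. H2BC12 read 8.36, 8.42 and 8.25 with vehicle and 8.65, 8.63 and 8.59 with R1881. The groups did not overlap, at a difference of 0.28 ± 0.06 (SE; 95% confidence interval 0.15 to 0.41) that missed the threshold with limma adjusted p = 0.0574. H2BC5 read 7.64, 7.79 and 7.60 and then 7.99, 8.03 and 7.85, again without overlap, at 0.28 ± 0.07 (0.11 to 0.45, limma adjusted p = 0.127). The other sets of H2BC5 stood at 0.17 and 0.11, while the second set of H2BC12 was below background at -0.10. Under a trended, robust prior both genes passed, with adjusted p of 0.0115 and 0.0438, and H2BC12 also when only genes above background were tested (0.0206). Those fits called 4.94% and 6.85% of all genes they tested. With all sets of a gene averaged, H2BC12 stood at 0.09 (limma adjusted p = 0.301) and H2BC5 at 0.19 (0.0741).

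The remaining 17 H2B genes lay between -0.24 and 0.19. Of these H2BC15 (-0.15 ± 0.10), H2BC8 (0.07 ± 0.07) and H2BC9 (0.08 ± 0.16) were above background. H2BC5 and H1-4 are next to each other on chromosome 6 and differed in sign, at 0.28 and -0.39. Counting all 21 histone genes above background, the groups did not overlap in 4, namely these 2 with H2BC12 and H4C8. Of all genes above background 25.9% had no overlap. H4C8 and H1-4 were counted above background through a single group, so this count depends on their difference. An unadjusted p under 0.05 was reached by 5 of the 21, beside 19.1% of all genes above background.

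**Figure D2:**
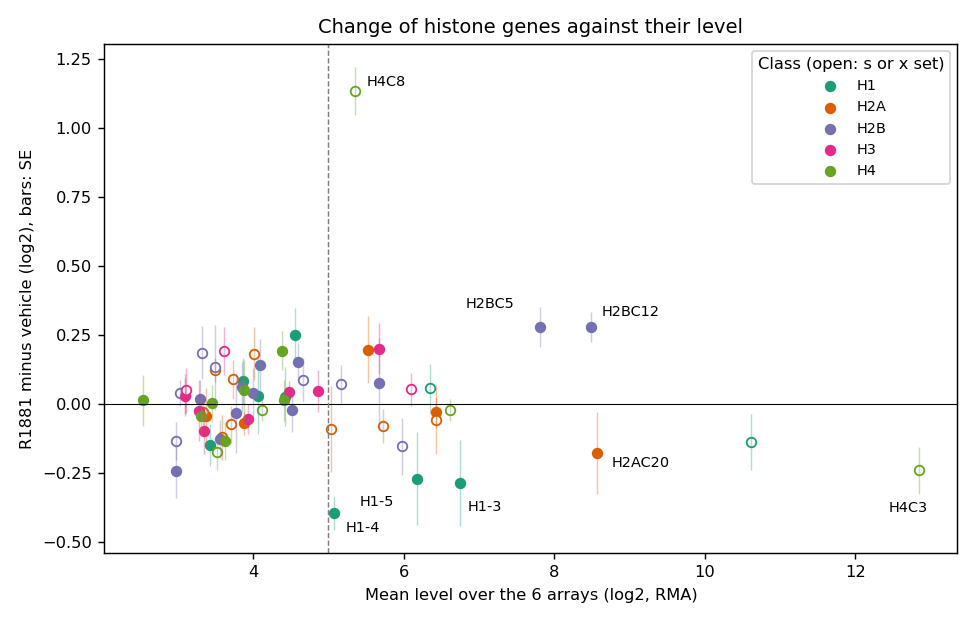
Change of each histone gene (R1881 minus vehicle, log2, with its SE) against its mean level over the 6 arrays, coloured by class, with open points for genes on s or x sets and the background level of 4.99 dashed (H1-10-AS1 is left out). H4C8 stands alone at 1.13, and nearly all genes left of the dashed line lie within 0.2 of 0.

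Of the other linker histone genes, H1-3 read 7.17, 6.63 and 6.87 with vehicle and 6.44, 6.52 and 6.85 with R1881, at -0.29 ± 0.16 (SE, limma adjusted p = 0.459). H1-5 read 6.44, 6.24 and 6.24 and then 5.86, 5.80 and 6.45, at -0.27 ± 0.17 (limma adjusted p = 0.516). In both, R1881 replicates 1 and 2 lay below all vehicle arrays and R1881 replicate 3 lay among them or above. H1-2, on an x set, stood at 0.06 ± 0.09, and the linker histone gene H1-10 at -0.14 ± 0.10. The germ cell genes H1-6 (0.03 ± 0.11), H1-7 (0.25 ± 0.10) and H1-8 (0.08 ± 0.08) were below background.

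Among H2A genes none was called. H2AC20 read 8.81, 8.57 and 8.58 with vehicle and 8.20, 8.43 and 8.80 with R1881, at -0.18 ± 0.15 (SE), with overlapping groups. H2AC8 stood at 0.20 ± 0.12, H2AC6 at -0.06 ± 0.12 and H2AC11 at -0.03 ± 0.06. Of the H3 genes H3C4 stood at 0.20 ± 0.09, and H3C8 at 0.05 ± 0.06 on its brightest set, while its 4 sets ranged from -0.16 to 0.23. H3C7, just under background at 4.84 and 4.89, stood at 0.05 ± 0.08.

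H4C3, whose sets are of the s and x types, read 13.07, 12.82 and 12.99 with vehicle and 12.66, 12.64 and 12.86 with R1881. Its difference was -0.24 ± 0.09 (SE; 95% confidence interval -0.44 to -0.04) with limma adjusted p = 0.275, and -0.29 ± 0.11 on its other set. R1881 replicate 3 overlapped the vehicle range, and replicates 1 and 2 did not. H4C12 ranged from 6.59 to 6.63 over the 6 arrays on its x set and from 5.88 to 6.29 on its other set. Among 32 histone genes with several probe sets, the sets were of 1 sign in 20 and of both signs in 12. A pair of H2BC21 sets held equal values on all arrays and is not independent.

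Above background, histone genes varied more between arrays of a group than genes in general. The median SD within groups was 0.13 log2 units over the 21 genes above background and 0.07 over all genes above background. This limits the changes that could be detected. Below background the median SD was 0.11 for histone genes and 0.11 for all genes. The genes compared were not matched for level, so whether the spread is particular to histone genes was not tested. In part of the genes the same arrays stood high. Vehicle replicate 1 was the highest vehicle array in 9 of the 21 genes, and in all 9 of them R1881 replicate 3 was the highest R1881 array. These were H1-2, H1-3, H1-5, H2AC17, H2AC20, H2BC9, H2BC15, H3C8 and H4C3. Over all genes above background, R1881 replicate 3 was highest in 24.3% of those in which vehicle replicate 1 was. The S phase list described further on gave 4 of 20. In 7 other histone genes, H2AC6, H2AC8, H2AC11, H2BC5, H2BC8, H2BC12 and H3C4, R1881 replicate 3 was the lowest R1881 array. That is 33.3% of the 21, near the 31.8% of all genes above background in which it was lowest. These groups of genes were picked after their values were seen and were not tested.

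**Figure D3:**
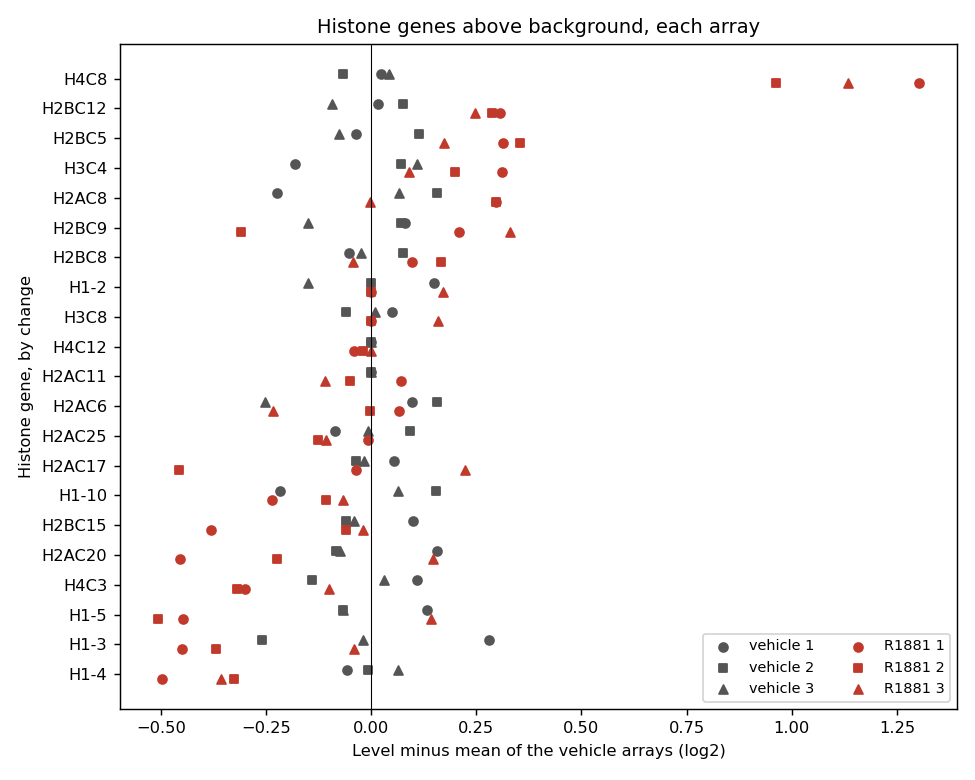
Level of each of the 21 histone genes above background on each array, minus the mean of its 3 vehicle arrays (log2), ordered by change, with a symbol for each replicate number. R1881 replicate 3 (red triangles) lies right of the other R1881 arrays in 11 of the 21 genes, among them H1-5, H1-3, H4C3 and H2AC20.

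Several values depended on single arrays, in both directions. Without R1881 replicate 3 H1-5 stood at -0.48 ± 0.08 (SE), H1-3 at -0.41 ± 0.16, H2AC20 at -0.34 ± 0.11 and H4C3 at -0.31 ± 0.08. None of these 4 passed even so, with limma adjusted p of 0.0702, 0.376, 0.290 and 0.219, and 1.25% of all genes were called in that fit. H4C3 was also at -0.31 without vehicle replicate 2, and H1-3 at -0.42. Other arrays moved the values toward 0, with H1-3 at -0.15 without vehicle replicate 1, H1-5 at -0.15 without R1881 replicate 2 and H2AC20 at -0.04 without R1881 replicate 1. H4C3 was nearest to 0 without vehicle replicate 1, at -0.19.

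Genes that act with the histone genes were taken from lists for transcription, mRNA processing, chaperones, variant histones and DNA replication. Of 4 measured genes of histone gene transcription none was called, and NPAT, the coactivator of histone locus bodies, stood at -0.05 ± 0.04. COIL, HINFP and YY1 stood at -0.04 ± 0.04, 0.04 ± 0.07 and -0.0033 ± 0.05. Of 16 genes of histone mRNA processing and decay none was called, 13 were lower by sign and the median was -0.07. SLBP, the stem-loop binding protein, read 10.36, 10.29 and 10.32 and then 10.16, 10.15 and 10.22, at -0.15 ± 0.04 (limma adjusted p = 0.199) with no overlap. Its partner MIF4GD stood at -0.13 ± 0.04, LSM10 of the U7 particle at -0.14 ± 0.04 and the exonuclease gene ERI1 at -0.14 ± 0.06.

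Of 22 histone chaperone and deposition genes none was called, and the median was -0.06. ASF1A, a chaperone of H3 with H4, stood at -0.25 ± 0.05 (limma adjusted p = 0.0577) and the acetyltransferase gene HAT1 at -0.20 ± 0.04 (0.0745). CHAF1B, part of the CAF-1 assembly factor, stood at -0.18 ± 0.05 and NASP at -0.15 ± 0.04. With only genes above background tested, 2 genes of this list were called lower, where 334 of 11049 genes were called lower and 6.85% in either direction. Under the trended, robust prior 4 were, beside 420 of 18129 genes. None of 10 replacement and variant histone genes was called, with a median of -0.08. Of these H2AX stood at -0.16 ± 0.05, CENPA at -0.14 ± 0.05, H2AZ1 at -0.09 ± 0.04 and MACROH2A1 at -0.08 ± 0.05. Unadjusted p under 0.05 by limma were reached by 4 processing, 5 chaperone and 2 variant histone genes, and by none of the transcription genes, beside 14.3% of all genes and 19.1% of those above background. All of the processing, chaperone and transcription genes measured were above background.

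Of 40 S phase and DNA replication genes, all above background, 6 fell and 34 did not pass, with 39 lower by sign and a median of -0.16. Called lower were 0.816% of all genes, and 145 of the 11049 above background. Those that fell were E2F8 (-0.38 ± 0.07), PRIM1 and POLE2 (-0.26 each), GINS2 (-0.25 ± 0.04), MCM6 (-0.24 ± 0.04) and PCNA (-0.23 ± 0.04), all of which act in DNA replication or its transcriptional control. The summed level of the 40 genes was 366.6 to 367.9 in the vehicle arrays and 360.2 to 361.2 in the R1881 arrays. Without any 1 array none of the 6 kept its call. Those fits called 53 to 72 of all 18129 genes lower, and the main fit 148. When only genes above background were tested, 16 genes of the list were called lower, where 334 of all 11049 were. An unadjusted p under 0.05 by limma was reached by 28 of the 40, all lower, beside 1141 lower genes of 11049. In 29 of the 40 the groups did not overlap, all lower, beside 14.8% of genes above background. Beside the median of -0.16 for these genes, the 21 histone genes above background had a median of -0.03, with 9 higher and 12 lower by sign; the difference between the lists was not tested. The inhibitor gene CDKN1A, which restrains S phase entry, rose by 0.42 ± 0.05 (SE, limma adjusted p = 0.0049). The cyclin gene CCND1, looked at beside it, stood at -0.10 ± 0.05 and was not called (limma adjusted p = 0.38). Whether these genes and the histone values moved together was not tested.

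**Figure D4:**
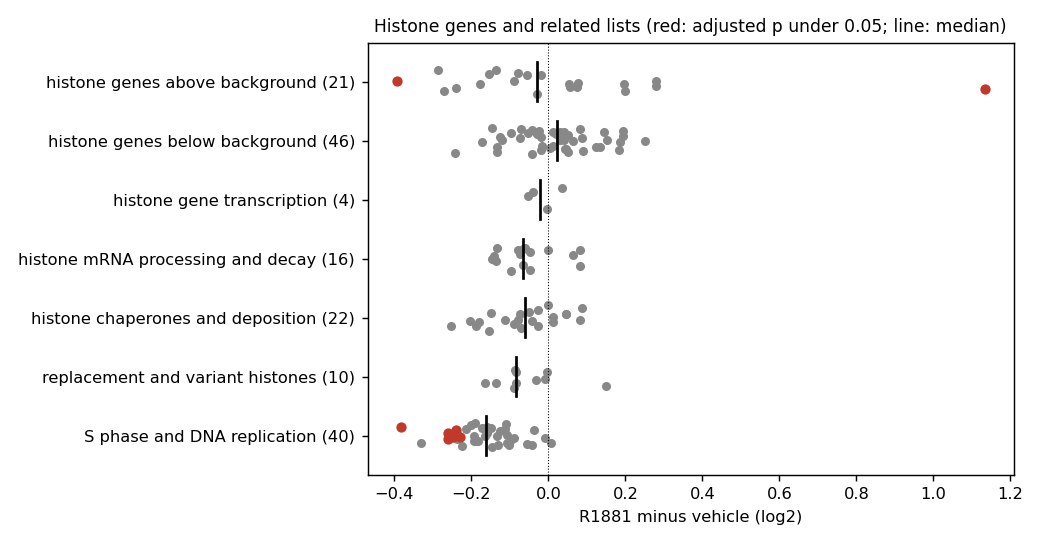
Change of each gene (R1881 minus vehicle, log2) in the histone genes above and below background and in 5 related lists, with the number of genes in brackets, the median as a line and genes with an adjusted p under 0.05 in red. H4C8 at 1.13 and H1-4 at -0.39 are the only called histone genes, and 6 S phase genes are called, all lower.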

How the data were processed

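Expression was measured on 6 Affymetrix arrays. The deposited values are on the log2 scale; the submitters' processing notes name RMA, a method of background correction, quantile normalization and probe set summary, without a version. They are rounded to 2 decimals, no detection calls were used, and 3 arrays per group limit the precision. Probe sets were named through the platform annotation, and 44898 of 49193 had 1 symbol. Of several sets for a gene, the set brightest on average over the 6 arrays was used. R1881 was compared with vehicle with limma 3.58.1 in R 4.3.3 (lmFit, eBayes, no filter, two-sided), first over genes and then over all probe sets. The fit was tested on simulated data.

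Where 1 group of a called gene lay below background, the stated minimum fold sets the brighter mean against the background level. It does not include the sampling error of that mean. Apart from the background level and the choice of the brightest sets and genes, levels of different probe sets were not compared, since probe affinity differs. That limit applies to those uses too.

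The members and lists were chosen with earlier results of these data known. Genes named were those called, the 10 above background with the smallest p and the 3 brightest of each class. The linker histone genes that are not replication-dependent and up to 4 genes per related list were named too. Added after values were seen were H2AC17, H2BC8, H2BC9, H4C7, POLE2, PCNA, CDKN1A and CCND1. The probe sets with several symbols, the neighbours and the genes named for equal motif counts were also added then. So were the TATAA motif, the H1 box and the androgen response element. For promoters with several entries the first by start was used. Of the listed variant histones, H4-16 and H2BU1 appear in the annotation as H4C16 and H2BC26 and were counted among the histone genes. A few other listed symbols were not analysed here. The arrays' replicate numbers (1 to 3 in each group) were not used to pair them, except in the replicate block. The series' design text calls the arrays biological replicates but does not say how the cultures were separated, so p-values measure the spread between these arrays.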

Additional observations from a re-analysis of the deposited data

How the results depend on the processing

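Over the alternatives run, H4C8 kept its rise and call in every fit that measured it, with adjusted p up to 0.0135; the fit restricted to sets without s or x left it out, since its only set is of the s type, and then 1 histone gene was called. The count of called histone genes was 2 in the main analysis and 4 with a trended, robust prior (which called 4.94% of all genes against 2.42%). With only genes above background tested it was 3 of 21, where 6.85% of the genes tested were called. H4C8 and H1-4 entered that fit through a single group. The count of called histone genes was 1 to 1 when an array was left out, where 1.15% to 1.49% of all genes were called. For probe sets it was 1 to 1 without an array, 1 under the replicate block, and 1 among member sets without s or x. The histone median of 0.01 was -0.03 with only genes above background, -0.0067 with all sets of a gene averaged, and -0.005 to 0.0267 without an array. Variant histones gave 2 calls and mRNA processing 1 under the trended prior, with a variant median of -0.0992 to -0.0525 without an array. Chaperones gave 1 after median centring, 2 above background, 4 under the trended prior and 1 with averaged sets. The transcription median of -0.02 was 0.0211 with averaged sets and -0.0417 to 0.0067 without an array. S phase counts were 16 above background, 18 under the trended prior, 3 without s or x sets (median -0.19), 0 under the replicate block and 0 to 0 without an array (median -0.1842 to -0.1558). Same-numbered arrays deviated together with correlations of 0.03 to 0.09, and whether they shared a culture or a processing step was not tested. The block kept 2 histone genes and 222 calls in all against 438.

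Small values changed sign: H2BC9 to -0.05 without R1881 replicate 3 (0.27 without R1881 replicate 2), H1-2 to -0.0183 without vehicle replicate 3 (at most 0.1317 with an array left out), H2AC6 to 0.0217 without vehicle replicate 2 and 0.0317 without R1881 replicate 3 (at least -0.1833), H2AC11 to 0.01 without R1881 replicate 3 (at least -0.08), H3C7 to -0.0033 without R1881 replicate 2 (at most 0.1267), H1-6 to -0.0833 without vehicle replicate 2 and -0.005 without R1881 replicate 2 (at most 0.1267), HINFP to -0.0367 without vehicle replicate 2 (at most 0.0883), and YY1 to 0.0033 after another quantile normalization, 0.0051 with array weights, 0.0689 with averaged sets and 0.045 without R1881 replicate 1 (at least -0.035). H2AC17 went from -0.09 to 0.0933 without R1881 replicate 2 (at least -0.2467 with an array left out). The cause of these changes was not tested. Counts above background were 34 and 13 at the 75th and 95th percentiles. Rounding to 2 decimals and the low signal of 46 of the 67 genes limit what could be detected.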

Other observations

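Probe sets listed with several histone symbols were outside the rule and are given here as values. There were 9, of which 4 lay above background and none was called when every probe set was tested (limma; none had an unadjusted p under 0.05). The H2AC18 and H2AC19 sets stood at -0.11 ± 0.09 and 0.15 ± 0.07 (SE), the H4C12 and H4C11 set at 0.08 ± 0.06, and the brighter H4C14 and H4C15 set at 0.03 ± 0.07. The 2 sets of H2AC18 and H2AC19 thus lay on opposite sides of 0.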
